A study of Homo sapiens with 4 samples.

Results

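The genes described are 10 components and response genes of the transforming growth factor beta (TGF-beta) and bone morphogenetic protein (BMP) pathway, followed across 4 libraries: the receptors TGFBR1 and TGFBR2, the signal carriers SMAD3 and SMAD4, the inhibitors SMAD6, SMAD7 and BAMBI, and the transcription regulators ID1, ID2 and ID3. They were chosen by name, and each matched 1 of the 60658 Ensembl gene identifiers measured. The libraries came from the human colorectal cancer lines HT29 and LIM1215. HT29 NC and LIM1215 NC are cells given a negative control siRNA with no gene target, and HT29 si2 and LIM1215 si2 are cells given an siRNA against TMEM161A, a gene for a transmembrane protein whose part in the growth of colorectal cancer the study examined. An siRNA is a short RNA duplex that directs the cleavage of a matching mRNA. Each of the 4 groups had 1 library, made with a stranded mRNA kit from total RNA, so no value below carries an error between cultures. No test between conditions was made.

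TGF-beta ligands bind TGFBR2, a kinase that activates TGFBR1, and TGFBR1 phosphorylates SMAD2 and SMAD3. BMP ligands work through other receptors that phosphorylate SMAD1, SMAD5 and SMAD9. Both kinds of SMAD join SMAD4 and enter the nucleus, where the TGF-beta arm induces genes such as SMAD7, and the BMP arm induces ID1, ID2, ID3 and SMAD6. SMAD6, SMAD7 and BAMBI then hold the pathway back. In normal colon epithelium TGF-beta restrains growth, and colorectal tumours often lose TGFBR2 or SMAD4. HT29 is known as a line with a SMAD4 mutation. LIM1215 is known as deficient in DNA mismatch repair, a defect in which runs of a single base change length, and TGFBR2 is a usual target of such changes. The files hold expression levels and no sequence of these cells, so neither defect was measured.

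The coding repeat that makes TGFBR2 such a target is shown from the reference genome, since it sets this receptor apart within the group. It lies in exon 3 of 7 of transcript ENST00000295754.10, at chr3:30650380-30650389 (GRCh38, plus strand), and starts at base 374 of the coding sequence. The capitals mark the run of 10 adenines.
TGFBR2: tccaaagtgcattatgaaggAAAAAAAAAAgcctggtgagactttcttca
The longest coding run of the other 9 genes was 8 bases, a run of cytosines in SMAD7, and between 5 and 6 bases in the rest, with 6 adenines in SMAD4. A longest run of at least 10 bases was found in 0.342% of 19567 coding genes, and one of at least 8 bases in 5.79%. ACVR2A, an activin receptor that also carries a coding adenine run, had 8.

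Upstream sequences were searched because 2 kinds of SMAD complex read different DNA words. The palindrome GTCTAGAC is bound by SMAD3 and SMAD4. The composite of GNCGNC and GTCT, with 5 bases of any kind between them, covers the site bound by BMP-activated SMADs with SMAD4. From 2000 bases before to 500 bases after the start of the canonical transcript, on both strands, the palindrome occurred in 2 of the 10 genes, SMAD6 and SMAD7, and in 1.43% of 19567 coding genes. The composite occurred in 3 of the 10, SMAD6, ID1 and ID3, and in 4.46% of coding genes. Relative to the transcript start, with upstream bases negative, the overlapping motifs of SMAD6 begin at −12 and −23. The palindrome of SMAD7 begins at −1260, and the composites of ID1 and ID3 begin at −911 and −506. The shorter word GGCGCC occurred in 9 of the 10 and in 62.3% of coding genes. The sequences below are those of the reference on the strand of each gene, with the motif in capitals (SMAD6 chr15:66702199-66702256, SMAD7 chr18:48952193-48952250 on the minus strand, ID1 chr20:31604353-31604417, ID3 chr1:23559968-23560032 on the minus strand).
SMAD6, palindrome: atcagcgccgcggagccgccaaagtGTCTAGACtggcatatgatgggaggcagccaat
SMAD7, palindrome: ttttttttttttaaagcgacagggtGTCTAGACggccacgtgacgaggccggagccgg
ID1, composite: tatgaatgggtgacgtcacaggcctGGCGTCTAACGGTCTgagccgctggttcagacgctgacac
ID3, composite: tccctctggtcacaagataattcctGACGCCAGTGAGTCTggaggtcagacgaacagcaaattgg
A match describes these letters and does not show binding. The motifs were chosen after the matches of several spellings had been seen.

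Levels are given as FPKM, a fragment count scaled by gene length and library size, which can be compared between genes. Per kilobase, 18.1 to 21.5 fragments were estimated to lie behind each FPKM unit, depending on the library. The 95% intervals cover counting error alone. TMEM161A checked the labels. Its FPKM was 42.6 in HT29 NC and 4.64 in HT29 si2, and 39.1 in LIM1215 NC and 7.61 in LIM1215 si2, so the knockdown libraries held 10.9% and 19.4% of control. The cell type was checked with 12 markers of colorectal epithelium. All 12 had an FPKM of at least 67.8 in both LIM1215 libraries. In both libraries labelled HT29, 6 of the 12 had an FPKM under 1, among them the brush border protein villin (VIL1, 0.0397 in HT29 NC and 0 in HT29 si2, against 192 and 261 in LIM1215), the cadherin CDH17, the lectin LGALS4 and the transcription factor CDX1, which was listed at 0 in both. The general epithelial genes EPCAM, KRT8, KRT18 and KRT19 were abundant in all 4 libraries, with FPKM from 154 upwards. The libraries labelled HT29 thus lack several defining markers of colorectal epithelium, and whether the cells are HT29 was not tested, so HT29 below means the libraries labelled so. Fibroblast markers summed to an FPKM between 9.16 and 21.5 and endothelial markers to between 0.419 and 0.601. Of the 5 leukocyte markers PTPRC, CD3E and MS4A1 were at 0 in all 4 libraries, and CD14 was at most at 0.195. The lysosomal protein CD68, the fifth, had an FPKM of 6.22 in HT29 NC, 9.82 in HT29 si2, 58.1 in LIM1215 NC and 72.2 in LIM1215 si2. In bulk RNA, fewer cells with a transcript and less of it per cell cannot be told apart.

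The control libraries were compared between the lines, which the known defects of SMAD4 and of mismatch repair make of interest. A gene counts as past the threshold when the log2 ratio of FPKM plus 1 was at least 1 in size, that is 2-fold, without a p-value. All 10 genes passed the filter of a mean FPKM of at least 1, as did 14803 genes in all. The inhibitors and ID2 were higher in LIM1215 NC than in HT29 NC, and SMAD3 was lower. Of the 10 genes, 4 were higher past 2-fold (BAMBI, SMAD7, ID2 and SMAD6) and 1 was lower (SMAD3), against 19.4% of all genes compared past the threshold either way (12.0% higher and 7.42% lower). The median log2 ratio was 0.37 over the 10 genes and 0.05 over all genes compared. Rescaling FPKM to a common sum or by the upper quartile put TGFBR2 past the threshold too, for a split of 4 higher and 2 lower. Such rescaling shifted the median of all genes by up to −0.16 on the log2 scale. In the same comparison 11 of the 12 colorectal epithelial markers were higher in LIM1215 past 2-fold, with a median log2 ratio of 4.56 over the list, and the part of this difference between the cells in the values below was not tested.

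**Figure D1:**
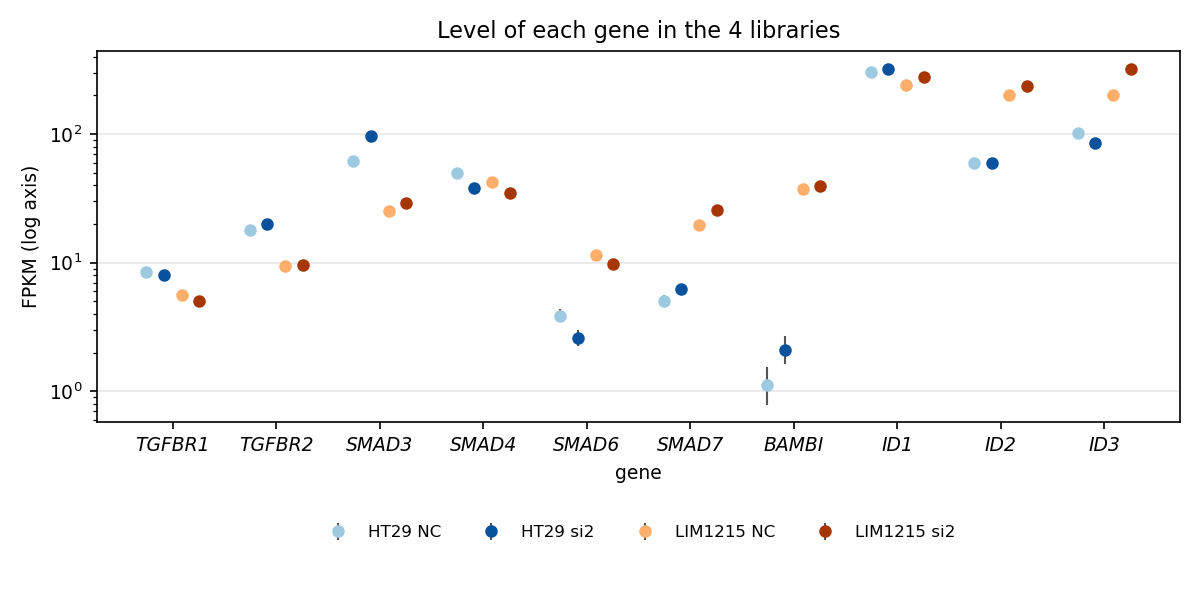
FPKM of the 10 genes on a log axis, 1 point for each library (HT29 NC light blue, HT29 si2 dark blue, LIM1215 NC orange, LIM1215 si2 brown), with 95% counting intervals as bars where they exceed the point. ID1, ID2 and ID3 stand above the other genes in both LIM1215 libraries, and BAMBI, SMAD6 and SMAD7 are lower in both HT29 libraries than in either LIM1215 library.

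The receptors stood below SMAD3, SMAD4 and the ID genes in each library and were lower in LIM1215. TGFBR2 (ENSG00000163513, chromosome 3, 30606601 to 30694142, plus strand) had an FPKM of 18.02 in HT29 NC, 20.1 in HT29 si2, 9.40 in LIM1215 NC and 9.57 in LIM1215 si2. Both HT29 libraries stood above both LIM1215 libraries. The LIM1215 NC level was 52.1% of that in HT29 NC, with a counting interval of 47.8% to 56.9%, and the log2 ratio was −0.87, short of the threshold. TGFBR1 (ENSG00000106799, chromosome 9, 99104038 to 99154192, plus strand), the kinase that TGFBR2 activates, had an FPKM of 8.48 in HT29 NC, 7.96 in HT29 si2, 5.62 in LIM1215 NC and 4.99 in LIM1215 si2. Its LIM1215 NC level was 66.2% of that in HT29 NC (60.01% to 73.0%). TGFBR2 exceeded TGFBR1 in each library, by 1.67 to 2.52 times in FPKM. Because TGFBR2 transcripts with a changed repeat would be counted together with unchanged ones, its level says nothing of the protein. Whether such transcripts were present, and how abundant they were, was not measured.

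The signal carriers differed from each other. SMAD4 (ENSG00000141646, chromosome 18, 51028528 to 51085045, plus strand), the shared partner, had an FPKM of 49.8 in HT29 NC, 38.0 in HT29 si2, 42.1 in LIM1215 NC and 34.9 in LIM1215 si2. Its levels in the lines overlap, with the LIM1215 NC library between the HT29 libraries. Of the controls, the library labelled HT29 did not have the lower SMAD4 mRNA level. Whether its cells carry the SMAD4 mutation known of that line was not measured. LIM1215 NC stood at 84.5% of HT29 NC (81.8% to 87.2%), a log2 ratio of −0.24. SMAD3 (ENSG00000166949, chromosome 15, 67063763 to 67195173, plus strand), which the TGF-beta receptors phosphorylate, had an FPKM of 62.0 in HT29 NC, 95.8 in HT29 si2, 25.01 in LIM1215 NC and 29.3 in LIM1215 si2. LIM1215 NC stood at 40.4% of HT29 NC (38.7% to 42.1%), and the log2 ratio of −1.28 was past the threshold. SMAD2, the other carrier of the TGF-beta arm, had an FPKM of 69.9 in HT29 NC and 75.6 in LIM1215 NC. The ratio of SMAD3 to SMAD2 was thus 0.886 in HT29 NC and 0.331 in LIM1215 NC.

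The inhibitors were all higher in LIM1215. BAMBI (ENSG00000095739, chromosome 10, 28677510 to 28682932, plus strand), a receptor-like protein without a kinase, had an FPKM of 1.12 in HT29 NC, 2.0995 in HT29 si2, 37.7 in LIM1215 NC and 39.2 in LIM1215 si2. The HT29 values rest on an estimated 35.4 and 67.3 fragments. LIM1215 NC was 33.6-fold above HT29 NC, with a counting interval of 24.3 to 49.2, and the log2 ratio was 4.19, or 2.80 with a pseudocount of 5. Among all genes compared this ratio lay at percentile 99.1.

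SMAD7 (ENSG00000101665, chromosome 18, 48919853 to 48950965, minus strand), which recruits ubiquitin ligases to the TGF-beta receptors, had an FPKM of 5.01 in HT29 NC, 6.20 in HT29 si2, 19.5 in LIM1215 NC and 25.7 in LIM1215 si2. LIM1215 NC was 3.89-fold above HT29 NC (3.44 to 4.42). SMAD6 (ENSG00000137834, chromosome 15, 66702236 to 66782849, plus strand), which acts mainly on the BMP arm, had an FPKM of 3.87 in HT29 NC, 2.59 in HT29 si2, 11.5 in LIM1215 NC and 9.76 in LIM1215 si2. LIM1215 NC was 2.96-fold above HT29 NC (2.59 to 3.40), with a log2 ratio of 1.36 that lay at 0.89, short of the threshold, with a pseudocount of 5. These are the genes whose upstream region holds the palindrome shown above. BAMBI and ID2, also higher past 2-fold, had no match to it, and a link between the motif and the levels was not tested.

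The ID genes, whose products bind E proteins and keep them off DNA, were the 3 most abundant of the group in both LIM1215 libraries, while in HT29 SMAD3 stood among them. ID1 (ENSG00000125968, chromosome 20, 31605283 to 31606515, plus strand) had an FPKM of 305.5 in HT29 NC, 319 in HT29 si2, 240.5 in LIM1215 NC and 278 in LIM1215 si2. It was the one ID gene with a lower level in LIM1215 NC, at 78.7% of HT29 NC (75.4% to 82.2%). ID2 (ENSG00000115738, chromosome 2, 8678845 to 8684461, plus strand) had an FPKM of 59.5 in HT29 NC, 59.2 in HT29 si2, 200.6 in LIM1215 NC and 238 in LIM1215 si2. LIM1215 NC was 3.37-fold above HT29 NC (3.17 to 3.59).

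ID3 (ENSG00000117318, chromosome 1, 23557926 to 23559501, minus strand) had an FPKM of 101 in HT29 NC, 85.7 in HT29 si2, 202 in LIM1215 NC and 319.8 in LIM1215 si2. LIM1215 NC was 1.99-fold above HT29 NC (1.87 to 2.12), and the log2 ratio of 0.98 stood just short of the threshold. ID1 made up 65.5% of the summed FPKM of the ID genes in HT29 NC and 37.4% in LIM1215 NC. The E proteins TCF3 and TCF12 had an FPKM of 93.3 and 36.5 in HT29 NC and of 110.4 and 32.8 in LIM1215 NC. TCF4, the other E protein, was listed at 0 in both HT29 libraries and at 3.93 and 4.10 in LIM1215.

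The order of the levels differed between the lines. In HT29 NC the order from the highest was ID1, ID3, SMAD3, ID2, SMAD4, TGFBR2, TGFBR1, SMAD7, SMAD6 and BAMBI, and the counting intervals of SMAD3 and ID2 overlapped. In LIM1215 NC it was ID1, ID3, ID2, SMAD4, BAMBI, SMAD3, SMAD7, SMAD6, TGFBR2 and TGFBR1, and those of ID3 and ID2 overlapped. BAMBI was thus the lowest of the 10 in HT29 NC and the fifth in LIM1215 NC.

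The si2 libraries gave the line difference in another pair of cultures. There 5 of the 10 genes were higher in LIM1215 past 2-fold (BAMBI, ID2, SMAD7, ID3 and SMAD6) and 1 was lower (SMAD3), against 21.2% of all genes compared (12.7% higher and 8.53% lower). BAMBI was 18.7-fold higher (14.7 to 24.4), ID2 4.02-fold (3.79 to 4.27), SMAD7 4.15-fold (3.72 to 4.63), SMAD6 3.77-fold (3.22 to 4.43) and ID3 3.73-fold (3.52 to 3.97). SMAD3 in LIM1215 si2 stood at 30.5% of HT29 si2 (29.4% to 31.7%). TGFBR2 had a log2 ratio of −0.99, and with upper quartile scaling it lay at −1.12, for a split of 5 higher and 2 lower. That scaling put 1638 of 14804 genes higher and 1535 lower. The split of the 10 genes was the same with a pseudocount of 0.1, with centring on the median and with both rescalings to a common sum. The direction of the line difference was the same in both pairs for each of the 10 genes. How many of all genes compared kept their direction was not counted, so this agreement cannot be called particular to the 10.

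**Figure D2:**
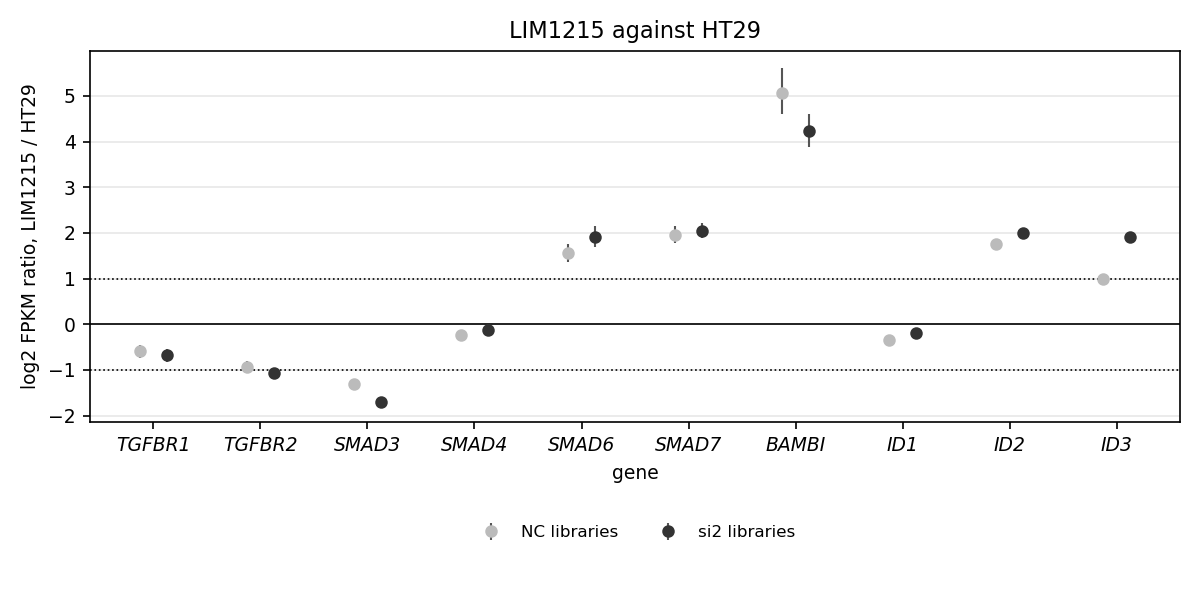
Log2 ratio of FPKM, LIM1215 over HT29, without a pseudocount, in the NC libraries (grey) and the si2 libraries (black), with 95% counting intervals. Dotted lines mark 2-fold, and BAMBI stands highest while TGFBR1, TGFBR2, SMAD3, SMAD4 and ID1 lie below 0 in both pairs.

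The knockdown libraries were then compared with the controls of their own line. None of the 10 genes was past 2-fold in HT29, where 3.80% of all genes compared were (1.85% higher and 1.95% lower), and none was in LIM1215, against 3.46% (1.68% higher and 1.78% lower). With a 1.5-fold threshold 1 gene was past it in each line, SMAD3 in HT29 and ID3 in LIM1215, as were 1165 genes higher and 1023 lower in HT29 and 982 higher and 915 lower in LIM1215. The log2 ratios of the 10 genes spanned −0.44 to 0.62 in HT29, with a median of 0.03. In LIM1215 they spanned −0.26 to 0.66, with a median of 0.13. Over all genes compared the median was 0.04 in HT29 and 0.02 in LIM1215, and the 5th and 95th percentiles lay at −0.69 and 0.71 in HT29, and at −0.64 and 0.66 in LIM1215.

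**Figure D3:**
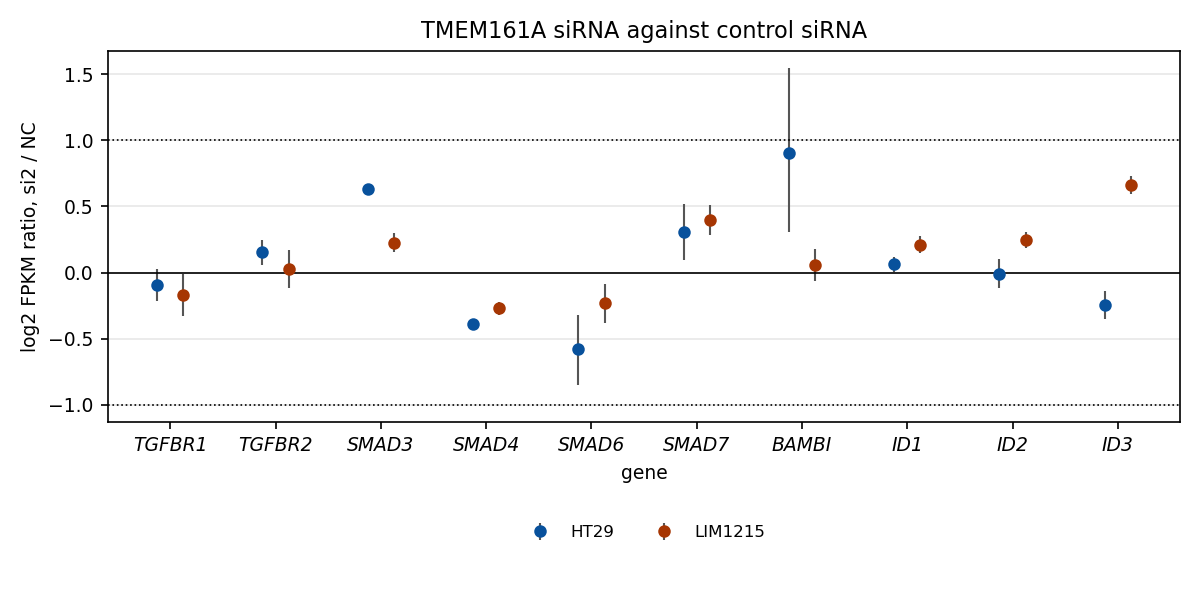
Log2 ratio of FPKM, si2 over NC, without a pseudocount, for HT29 (blue) and LIM1215 (brown), with 95% counting intervals. All points lie inside the dotted 2-fold lines, and ID3 is below 0 in HT29 and above 0 in LIM1215.

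On the log2 scale of FPKM plus 1, SMAD3 had the largest difference of the group in HT29, whereas without a pseudocount, or with one of 0.1, the scarce BAMBI did. SMAD3 stood at 155% of control in HT29 si2 (counting interval 150.4% to 159%), a log2 ratio of 0.62 at percentile 93.0 of all genes compared, and at 117% in LIM1215 si2 (111% to 123%), a log2 ratio of 0.22. SMAD4 was lower in both knockdown libraries, at 76.2% of control in HT29 (73.9% to 78.6%) and 82.9% in LIM1215 (80.0% to 85.8%). The ratio of SMAD4 to SMAD3 in FPKM was 0.804 in HT29 NC and 0.396 in HT29 si2, and 1.68 in LIM1215 NC and 1.19 in LIM1215 si2.

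SMAD7 and SMAD6 differed in direction. SMAD7 was higher in both knockdown libraries, at 124% of control in HT29 (107% to 143%) and 132% in LIM1215 (122% to 142%). SMAD6 was lower in both, at 66.9% in HT29 (55.6% to 80.2%) and 85.1% in LIM1215 (76.6% to 94.3%). The FPKM ratio of SMAD7 to SMAD6 was 1.29 in HT29 NC and 2.39 in HT29 si2, and 1.70 in LIM1215 NC and 2.63 in LIM1215 si2. BAMBI in HT29 si2 stood at 187% of control, but few fragments left a wide counting interval of 124% to 293%. In LIM1215 BAMBI was at 104% (95.5% to 113%), an interval that holds no change.

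The receptors differed little. TGFBR2 stood at 111% of control in HT29 (104% to 119%) and at 102% in LIM1215 (92.1% to 113%). In LIM1215 its log2 ratio of 0.02 turned to −0.00034 when the ratios were centred on their median. TGFBR1 stood at 93.9% in HT29 (86.3% to 102%) and at 88.9% in LIM1215 (79.5% to 99.3%).

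Among the 10 genes ID3 had the largest difference between the responses of the lines, 0.90 on the log2 scale. ID3 stood at 84.5% of control in HT29 si2 (78.6% to 90.8%) and at 159% in LIM1215 si2 (151% to 166%), with log2 ratios of −0.24 and 0.66. The LIM1215 value lay at percentile 95.01 of all genes compared. ID2 stood at 99.5% in HT29 (92.3% to 107%) and 119% in LIM1215 (114% to 124%). ID1 stood at 104% in HT29 (100.5% to 109%), a direction that turned after rescaling to a common sum (log2 ratio 0.06 against −0.02), and at 116% in LIM1215 (111% to 121%). The summed FPKM of the ID genes was 466 in HT29 NC and 464 in HT29 si2, and 643 in LIM1215 NC and 836 in LIM1215 si2. In LIM1215 si2 ID3 took the place of ID1 as the highest of the 10 genes. Since each line had 1 library a group, the difference between the lines was not tested.

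Other genes of the pathway were described from lists that hold 115 further genes, of which 114 matched an identifier and 74 passed the filter. In the control libraries 14 of the 74 were higher in LIM1215 past 2-fold and none was lower, beside 12.0% and 7.42% of all genes compared. After rescaling to a common sum the split was 13 higher and 3 lower, against 1568 and 1598 of all genes. Between knockdown and control, 2 of the 74 were higher in HT29 and 2 in LIM1215, and none was lower, beside 1.85% of all genes compared higher in HT29 and 1.68% in LIM1215. With a pseudocount of 0.1 the HT29 counts were 7 higher and 2 lower, and those of all 14803 genes were 570 and 558. In LIM1215 they were then 6 higher and none lower, and those of all genes 476 and 508.

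**Figure D4:**
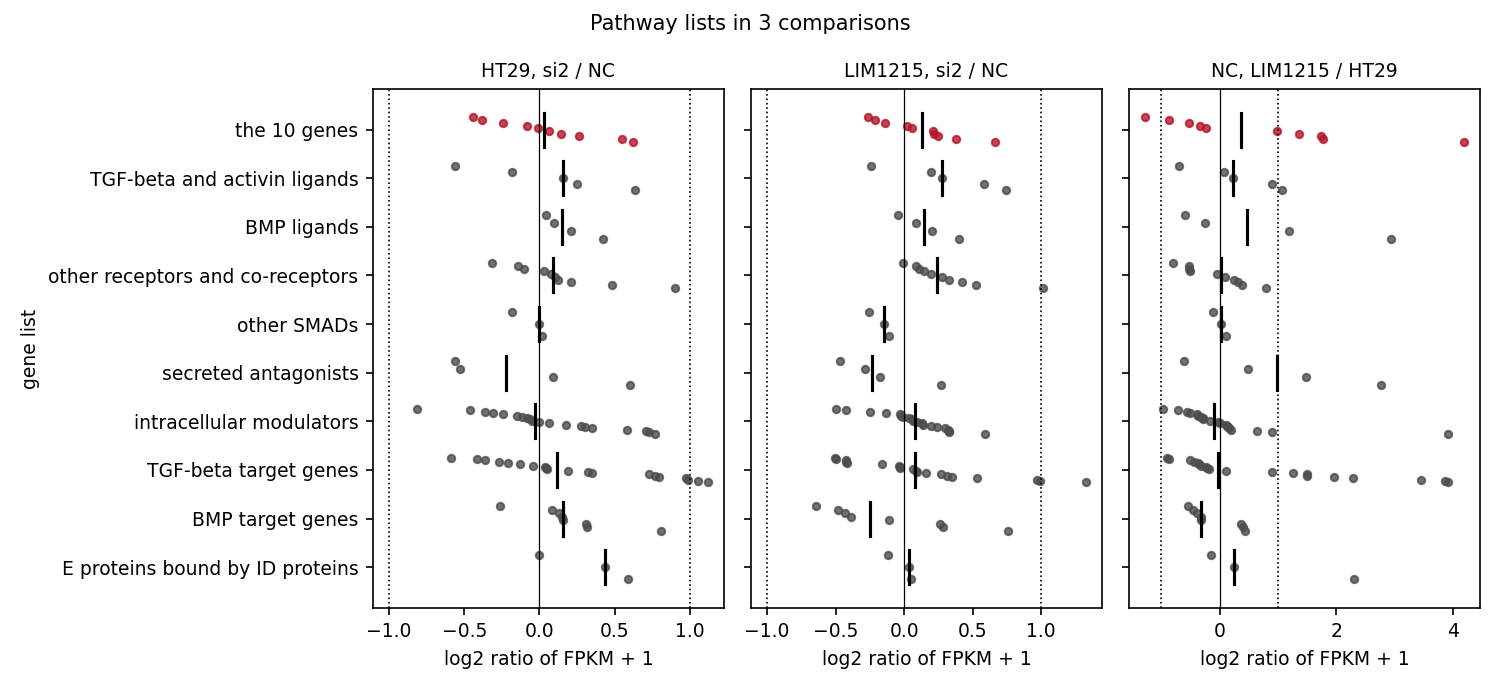
Log2 ratio of FPKM plus 1 for the genes of each list that passed the filter, 1 point a gene, in 3 comparisons, with the list's median as a bar and dotted lines at 2-fold. The 10 genes are in red and are left out of the other lists, and nearly all points of the knockdown panels lie inside 2-fold.

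Among ligands, 4 of the BMP list passed the filter. BMP4 and BMP7 were higher in LIM1215 NC than in HT29 NC past 2-fold, beside 12.0% of all genes compared. BMP1 and BMP8B were lower, short of the threshold, with log2 ratios of −0.25 and −0.59. BMP4 had an FPKM of 63.1 in HT29 NC and 146 in LIM1215 NC, and BMP7 of 4.58 and 42.1, a log2 ratio of 2.95. TGFB1, the main TGF-beta ligand, had an FPKM of 14.6 in HT29 NC, 23.2 in HT29 si2, 31.6 in LIM1215 NC and 53.6 in LIM1215 si2. Between the controls its log2 ratio of 1.06 was past 2-fold, a call lost with a pseudocount of 5 and under each of the 3 rescalings of FPKM. In the knockdown libraries it stood at 159% (145% to 174%) and 169% (159% to 181%) of control, short of the threshold. BMP1, a protease despite its name, stood at 136% and 134%. GDF15, a distant and abundant relative, had an FPKM of 510.5 in HT29 NC, 345 in HT29 si2, 596 in LIM1215 NC and 681 in LIM1215 si2. GDF11 ranged from 3.61 to 4.85.

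Of the other receptors and co-receptors 10 of 15 passed the filter. ACVR1C, a receptor kinase for activin and nodal, was past 2-fold in LIM1215 si2, with an FPKM of 1.26 in LIM1215 NC and 3.57 in LIM1215 si2 (log2 ratio 1.02), against 0.307 and 0.378 in HT29. This call was lost with a pseudocount of 5, with centring on the median and with upper quartile scaling. No receptor was past 2-fold between the control libraries on the scale of FPKM plus 1. Without a pseudocount the scarce ACVR1C was 4.10-fold higher in LIM1215 NC than in HT29 NC (3.06 to 5.66). ACVR1 had an FPKM of 11.4 in HT29 NC and 7.69 in LIM1215 NC, ACVR1B of 10.7 and 10.4, and the co-receptor RGMB of 10.9 and 14.5. ACVR2A was at 3.92 and 4.25. The remaining carriers lay close together in the controls, with SMAD5 at 30.8 in HT29 NC and 28.6 in LIM1215 NC and SMAD1 at 11.8 and 12.0. SMAD5 was lower in both knockdown libraries, at 87.7% and 83.2% of control.

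The secreted antagonists were largely silent, and 4 of 16 passed the filter. FSTL3, which binds activins, had an FPKM of 12.1 in HT29 NC and 88.1 in LIM1215 NC, and NBL1, a BMP antagonist, of 38.4 and 108. Both were past 2-fold. TWSG1, a modulator of BMP binding, was at 10.2 and 14.7 in the controls and at 64.4% and 80.6% of control in HT29 si2 and LIM1215 si2. Inside the cell, SMURF2, a ubiquitin ligase that works with SMAD7, had an FPKM of 149.9 in HT29 NC and 75.6 in LIM1215 NC, a log2 ratio of −0.98. The corepressor TGIF1 had 258 and 182, and FKBP1A, which holds TGFBR1 inactive, 189.5 and 147. PMEPA1, a target and inhibitor of TGF-beta signalling, was the 1 modulator of 20 past 2-fold between the controls, beside 19.4% of all genes compared. Its FPKM was 0.773 in HT29 NC, 2.01 in HT29 si2, 25.6 in LIM1215 NC and 17.9 in LIM1215 si2. With centring on the median SMURF2 was past 2-fold too. Between the si2 libraries SMURF2 was lower in LIM1215 past 2-fold without centring, with a log2 ratio of −1.12.

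Of the TGF-beta target genes other than SMAD7, 20 passed the filter, 8 were higher in LIM1215 NC past 2-fold and none was lower, beside 12.0% and 7.42% of all genes compared. After rescaling to a common sum 8 were higher and 2 lower, beside 1568 and 1598 of 15272 genes. The largest differences were in PMEPA1 (log2 ratio 3.91), the matrix protein TGFBI (FPKM 0.50 in HT29 NC and 20.9 in LIM1215 NC, log2 ratio 3.87) and the collagen COL4A2 (0.346 and 13.7, log2 ratio 3.45). The median over the 20 genes was −0.03, with 10 above and 10 below 0. Between knockdown and control, CDKN1A, the cell cycle inhibitor p21, was past 2-fold in both lines, with an FPKM of 189.9 and 414 in HT29 and 206 and 518 in LIM1215. CDKN1A is also a p53 target. LTBP2, a matrix protein, was past 2-fold in HT29, with an FPKM of 0.864 in the control and 2.87 after knockdown, a call lost with a pseudocount of 5. It stood at 3.44 and 3.74 in LIM1215. TSC22D1 was at 175% of control in HT29 and 125% in LIM1215.

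Of the BMP target genes beyond the 10, 8 passed the filter. None was past 2-fold between the controls, beside 19.4% of all genes compared. After knockdown none was in either line, beside 3.80% in HT29 and 3.46% in LIM1215. The median log2 ratio of the 8 between the controls was −0.32, with 3 above and 5 below 0. Between the si2 libraries MSX1 (log2 ratio −1.26) and RUNX3 (−1.13) were lower in LIM1215 past 2-fold, beside 8.53% of all genes compared. None of the 8 was higher past 2-fold there, beside 12.7%. MSX1 had an FPKM of 58.7 in HT29 NC and 40.2 in LIM1215 NC, HES1 of 19.4 and 25.8, and RUNX3 of 14.5 and 10.8. Between knockdown and control, 3 of the 8 were above 0 and 5 below in LIM1215, and 7 above and 1 below in HT29. In LIM1215 si2, MSX1 stood at 63.2% of control (57.9% to 68.9%) and RUNX3 at 71.9% (64.8% to 80.0%). HES1 stood at 121% there (109% to 134%), and ID3 was also higher. In HT29 si2, MSX1 stood at 106%, RUNX3 at 126% and HES1 at 112%.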

How the data were processed

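The authors deposited 1 table of FPKM per library, made per the submitters' processing notes with HISAT2 2.1.0, SAMtools 1.20, Cufflinks 2.2.1 and Cuffdiff, with the build GRCh38. Their roles and order, gene annotation, strand setting and scaling between libraries are not given in the sources used here. Gene symbols, positions and canonical transcripts came from GENCODE release 44 and sequences from the hg38 genome, matched by identifier for 56550 of 60658 genes. No exon of another gene covered the canonical transcripts of the 10 genes, except 814 bases of SMAD4 shared with ENSG00000267699, whose FPKM was at most 0.50.

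Log2 ratios used a pseudocount of 1 and genes with a mean FPKM of at least 1, so ratios of low genes are understated. Depth was estimated from the steps of low FPKM values in genes annotated with a single transcript, 500 bases or longer, after a check on simulated data. Of these values 78.9% to 80.1% lay within 0.03 of a whole fragment. Fragments per gene assume the canonical transcript, and ratio intervals are exact Clopper-Pearson intervals at 95%. Computations used Python 3.11.15, scipy 1.17.1 and pysam 0.24.0. The genes, lists and thresholds were chosen with earlier results of these data known. Named besides the 10 genes were those of each list past 2-fold after knockdown, the 3 highest in mean FPKM and the 3 largest line differences past 2-fold, with TMEM161A and ACVR2A. Some genes that this rule names are not reported here. Alternatives were pseudocounts of 0.1 and 5, other filters, scalings and a 1.5-fold threshold.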

Additional observations from a re-analysis of the deposited data

Results flagged for a closer look

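For 13 of the genes named here the knockdown library lay on one side of its control in HT29 and on the other side in LIM1215. None of these differences was tested, since each line had 1 library a group. The share of all genes compared with opposite directions was not counted, so the 13 cannot be called many or few. Differences are LIM1215 minus HT29 on the log2 scale of FPKM plus 1. Among the 10 genes they were 0.90 for ID3 and 0.25 for ID2, whose HT29 value of −0.01 has a counting interval that holds no change.

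Of the other pathway genes named, PMEPA1 had the largest difference, −1.26, from 0.77 in HT29 and −0.50 in LIM1215, although its HT29 levels were low. The BMP targets RUNX3 and MSX1 differed by −0.74 and −0.72, and the ligand GDF15 by 0.76. TCF3 differed by −0.55 and ACVR2A by 0.51. The smaller differences were −0.26 for NBL1, 0.22 for ACVR1B, −0.16 for SMAD2, −0.14 for BMP7 and 0.11 for FKBP1A. For BMP7, ACVR1B and FKBP1A the counting intervals hold no change in both lines, and for MSX1 and NBL1 they do so in HT29. The HT29 direction of SMAD2, MSX1 and NBL1 turned under at least 1 other scaling.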

How the results depend on the processing

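With a 1.5-fold in place of a 2-fold threshold, 1 of the 10 genes was past it between knockdown and control in HT29 (SMAD3) and 1 in LIM1215 (ID3), against 0 in each. Under the 8 other alternatives both counts stayed at 0. Between the control libraries the count was 4 to 7 and between the knockdown libraries 5 to 7 over the 9 alternatives. A pseudocount of 5 gave the lowest counts, beside 947 higher and 353 lower of all 14803 genes between the controls. Between the knockdown libraries it gave 1059 and 491 of all genes. The 1.5-fold threshold gave 7 in both, beside 3220 higher and 2409 lower of all genes between the controls. Between the knockdown libraries these were 3219 and 2558. For the other pathway genes, rescaling to a common sum changed the split between the knockdown libraries from 14 higher and 4 lower to 14 and 7, and that of all genes compared from 1877 and 1262 to 1787 and 1611. Of the log2 ratios of the 10 genes, 80 of 80 alternative values stayed close to the main one between knockdown and control in LIM1215 and 72 of 80 in HT29. In the line comparisons 52 of 80 did so between the control libraries and 57 of 80 between the knockdown libraries. Close means a shift no larger than the margin of the gene's counting interval on the log2 scale. A scarce gene can therefore shift far and still count, as BAMBI did in HT29, where its log2 ratio spanned 0.21 to 0.85. The other filters change only which genes are kept, so their values equalled the main ones by construction. Directions turned for ID1 in HT29 and TGFBR2 in LIM1215, as given above. No paired analysis was possible because the labels give no replicate numbers and each group had 1 library, so no library was left out in turn either. A fit over both lines with the line as a block, which would take the lines as replicates, was not made. Depth limits BAMBI in HT29 most, at an estimated 35.4 and 67.3 fragments.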

Other observations

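The balance of mRNA between the ID genes and the genes of the E proteins differed between the libraries, without a test. The summed FPKM of ID1, ID2 and ID3 was 3.59 times that of TCF3, TCF4 and TCF12 in HT29 NC and 2.56 times in HT29 si2, and 4.37 times in LIM1215 NC and 5.997 times in LIM1215 si2. In HT29 the ID sum was 466 in NC and 464 in si2, while the E protein sum was 130 and 182. In LIM1215 the ID sum was 643 in NC and 836 in si2, and the E protein sum was 147 and 139.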
